A study of Mus musculus with 3 samples.

Results

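The mural cells of the retina, the pericytes and smooth muscle cells that wrap its vessels, were 67 of the 15242 cells in the series. They were the cells of the 1 cluster, among the authors' clusters 13 to 20, with the highest share of cells holding an Rgs5 UMI (unique molecular identifier, 1 counted RNA molecule). In that cluster, number 14, 66 of 67 cells (98.5%) held Rgs5, against 0% to 3.13% in the other 7 clusters, where the nearest was cluster 18 with 1 of 32 cells. Rgs5 therefore chose the members, and its level against other clusters is given as a description with no test. The WT library gave 20 of the cells, the rd10-vehicle library 25 and the rd10-TMB library 22.

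Pericytes sit in the basement membrane of capillaries, where they are recruited by endothelial Pdgfb acting on their receptor Pdgfrb, and in the retina they help to form the blood-retina barrier. Smooth muscle cells ring arterioles and set vessel diameter through actin, myosin and the proteins that couple them to calcium. Kcnj8 and Abcc9 encode the pore and the regulatory subunit of the ATP-sensitive potassium channel of vessels, which couples mural cell membrane potential to energy state.

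The series compared the retinas of 3 groups of mice aged 8 weeks, all C57BL/6J by label and all reared in darkness. WT mice (wildtype) and rd10-vehicle mice (Rd10, a Pde6b mutation that kills rods) ate base chow. The rd10-TMB mice (Rd10) ate chow with tamsulosin, an alpha1-adrenergic blocker, metoprolol, a beta1-adrenergic blocker, and bromocriptine, a D2-like dopamine receptor agonist. The rd10 pools were of female mice, whereas the WT pool also held males, and each group was 1 pooled library of papain-dissociated cells. With 1 library per group there was no residual spread between replicates, so no p-value was computed. The intervals given are 95% and cover counting error only.

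The cluster was shallow. Per cell, the median number of UMIs was 2990.5 (WT), 3357 (rd10-vehicle) and 3013.5 (rd10-TMB), while the median over all cells of a library lay between 3509.5 and 4811.5. In all, the cluster held 66210, 93603 and 73104 UMIs in the 3 libraries. Barcodes shared between libraries concerned 50 cells of the series and 0 cells of the cluster. In WT, 9 of the 20 cells held Xist and no Y-linked UMI, 4 held a Y-linked UMI without Xist and 7 held neither, so each comparison with WT also compared cells of both sexes with cells of females.

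The cells carried the marker set of mural cells, but the label of pericytes covered only part of them. Of 12 pericyte markers, 11 were at least 2-fold higher than in all other cells and at least 20 CPM (UMIs of a gene per 1000000 UMIs of the cells summed). All 9 smooth muscle markers in the matrix passed the same limits. Among all 1909 genes with at least 20 UMIs in the cluster, 30.4% were at least 2-fold higher, and the pericyte markers include Rgs5, which chose the cluster. Folds over all other cells were ranked among genes with at least 50 UMIs in the cluster, which leaves out Pln with 36. The 10 highest held 5 smooth muscle markers and 0 pericyte markers. Myh11, smooth muscle myosin heavy chain, led with 1597 CPM and a 727-fold excess (609 to 874), followed by Acta2, smooth muscle actin, with 6423 CPM and 684-fold. The others were Mustn1 (397-fold), Tpm2 (383-fold), Olfr558 (288-fold), Tagln (283-fold), Lmod1 (229-fold), Slc38a11 (148-fold), Mrvi1 (118-fold) and Aoc3 (109-fold). The cells are called mural here for that reason.

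Of 110 entries on 16 marker lists of other cell types, 43 had 0 UMIs. The fibroblast markers Pdgfra, Col1a1, Fbln1 and Slc6a13 had 0 UMIs, as did the endothelial markers Cdh5 and Egfl7, 8 of 9 microglial markers, all 4 melanocyte markers and all 4 haemoglobin genes. The 8 fibroblast markers in the matrix nonetheless summed to 6253 CPM (WT), 5545 (rd10-vehicle) and 8262 (rd10-TMB), because Mgp, a matrix protein that mural cells also express, gave 1466 of their 1537 UMIs. The 12 endothelial markers summed to 483, 641 and 438 CPM in the same order, and 2 of them passed the limits used for pericyte markers. The 9 rod markers summed to 1087, 374 and 793 CPM, and none of the rod, Müller glia or lens markers was at 0. The 6 ganglion cell markers held 269 UMIs, of which Rbpms gave 142 and Sncg 126, and the 5 horizontal cell markers 197, of which Sept4 gave 195. The part of these transcripts in the results was not tested.

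Rgs5, a regulator of G protein signalling used as a marker of pericytes, was found in nearly every cell, as the rule requires. It stood at 10171 CPM in the cluster, with a median of 30 and a maximum of 129 UMIs per cell, against 4530 CPM in the endothelial-like cluster, 1658 in the astrocyte-like cluster and 2.67 in the Müller glia-like cluster. The gene lies at chr1:169655501-169695813 (GRCm38). In cells thinned to 1000 UMIs, 95.5% of the mural cells and 0.233% of the Müller glia-like cells held it.

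Pdgfrb and the channel genes were less even across the cells. Pdgfrb, the receptor that recruits pericytes, was at 893 CPM and in 85.1% of the cells, but 33.4% of Müller glia-like cells also held it, and that cluster held 57.7% of the Pdgfrb UMIs of the series. Kcnj8 was at 807 CPM in 55.2% of the mural cells, and Abcc9 at 880.1 CPM in 58.2%. In Müller glia-like cells, which should lack both, 0.189% held Kcnj8 and 0.126% held Abcc9. Thinned to 1000 UMIs, the mural share of cells was 48.5% for Kcnj8 and 45.5% for Abcc9.

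The remaining pericyte genes followed. Of 40 genes on a pericyte identity list, 33 had at least 20 UMIs in the cluster, 31 of these were at least 2-fold and 29 at least 10-fold above all other cells, and 28 were at least 2-fold above the endothelial-like cluster. Over all 1909 genes with 20 UMIs, the shares past the same limits were 30.4%, 9.48% and 20.2%; the clustering itself used these genes, so the counts describe the cells and test nothing. Vtn, which encodes the matrix protein vitronectin, was at 5341 CPM, and Higd1b at 1185 CPM and in 86.6% of cells. In 4 of 5 pairs of paralogues the mural form had more UMIs. Higd1b had 276 UMIs and Higd1a 28. Ndufa4l2 had 286 and Ndufa4 28. Kcnj8 had 188 and Kcnj11, the channel pore of beta cells and neurons, 0. Abcc9 had 205 UMIs and its paralogue Abcc8 had 0. The exception was Cox4i2, with 119 UMIs against 202 of Cox4i1.

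**Figure D1:**
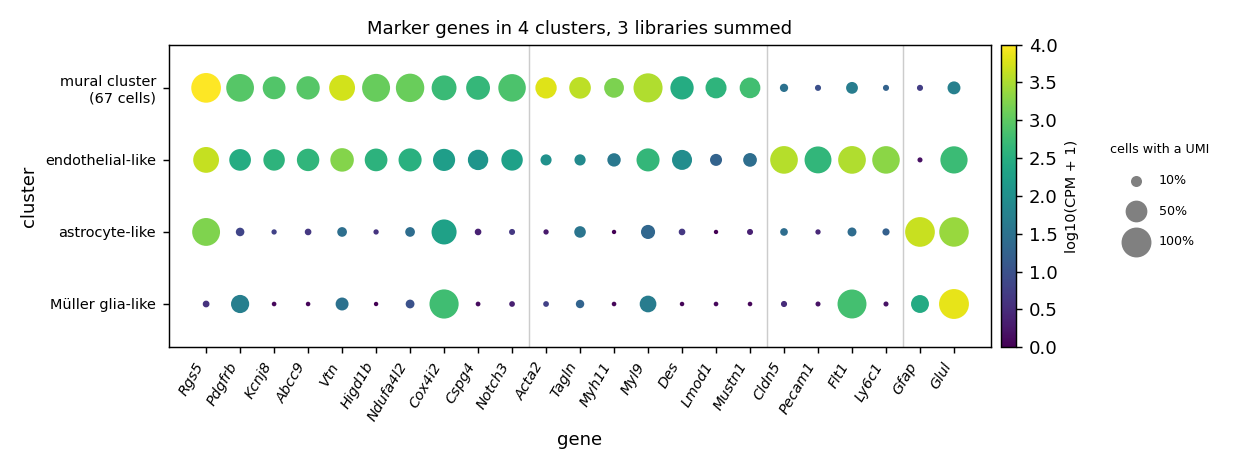
Dot plot of 23 marker genes (x axis) in the mural cluster and the endothelial-like, astrocyte-like and Müller glia-like clusters (y axis); dot area is the percent of cells with a UMI and colour is log10(CPM + 1), all libraries pooled. The mural row is filled for both pericyte and smooth muscle genes, Rgs5 is also high in the endothelial-like and astrocyte-like rows (4530 and 1658 CPM), and Acta2 is high only in the mural row (6423 CPM).

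Most pericyte transcripts of the series lay outside the mural cluster. The 67 cells held 8.88% of all Rgs5 UMIs, 9.80% of Kcnj8, 9.96% of Abcc9, 14.1% of Higd1b and 15.3% of Notch3. The endothelial-like cluster of 393 cells held 75.7%, 88.0%, 88.6%, 85.1% and 76.3% of them. Smooth muscle transcripts varied in this respect. The mural cluster held 65.3% of the Acta2 UMIs, 66.7% of Myh11 and 81.8% of Pln, which encodes the calcium pump inhibitor phospholamban. It held 43.7% of Tagln and 38.5% of Lmod1. Of the Myl9 UMIs it held 16.2%, against 41.8% in the endothelial-like and 39.0% in the Müller glia-like cluster.

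Single droplets of the endothelial-like cluster carried both gene sets. With a limit of 5 UMIs over 8 pericyte genes (Pdgfrb, Kcnj8, Abcc9, Cspg4, Higd1b, Notch3, Vtn, Ndufa4l2) and over 7 endothelial genes (Cldn5, Pecam1, Flt1, Kdr, Cdh5, Ly6c1, Egfl7), 215 of 393 droplets (54.7%, 49.6 to 59.7) passed both limits. Another 117 passed the endothelial limit alone, 61 passed neither and 0 passed the pericyte limit alone. In the mural cluster 63 of 67 cells passed the pericyte limit alone and 1 passed both. The droplets with both sets had a median of 13037 UMIs, those with endothelial genes alone 4971, and the mural cells 3065. Doublets had been removed by the authors before deposit, and whether these droplets hold 1 or several cells was not tested.

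The share of such droplets differed between libraries. It was 45 of 137 (32.8%, 25.1 to 41.4) in WT, 106 of 156 (67.9%, 60.01 to 75.2) in rd10-vehicle and 64 of 100 (64.0%, 53.8 to 73.4) in rd10-TMB. Droplets that passed neither limit were 46 of 137 in WT, 7 of 156 in rd10-vehicle and 8 of 100 in rd10-TMB. Among droplets past the endothelial limit alone or with the other, the share with both sets was 45 of 91 in WT (49.5%, 38.8 to 60.1), 106 of 149 in rd10-vehicle (71.1%, 63.2 to 78.3) and 64 of 92 in rd10-TMB (69.6%, 59.1 to 78.7). Ratios taken over the whole endothelial-like cluster are affected by this makeup, and they are given beside the mural values only as a reference. Within the droplets with both sets Rgs5 was at 5999, 5979 and 5628 CPM and Vtn at 2414, 2403 and 2475 CPM. For Rgs5 the ratio of rd10-TMB was -0.09 over WT (-0.15 to -0.04) and -0.09 over rd10-vehicle (-0.13 to -0.04), a small difference that exceeds counting error. Some other pericyte genes there differed by more. Abcc9 had log2 ratios of -0.43 (rd10-vehicle) and -0.47 (rd10-TMB) over WT. Kcnj8 and Cspg4 were at -0.38 and -0.40 for rd10-vehicle over WT, and Higd1b at 0.39 for rd10-TMB over rd10-vehicle. For Pdgfrb, Notch3, Ndufa4l2 and Vtn no ratio there exceeded counting error. The pericyte genes of the limit chose these droplets, so their levels there are a description.

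**Figure D2:**
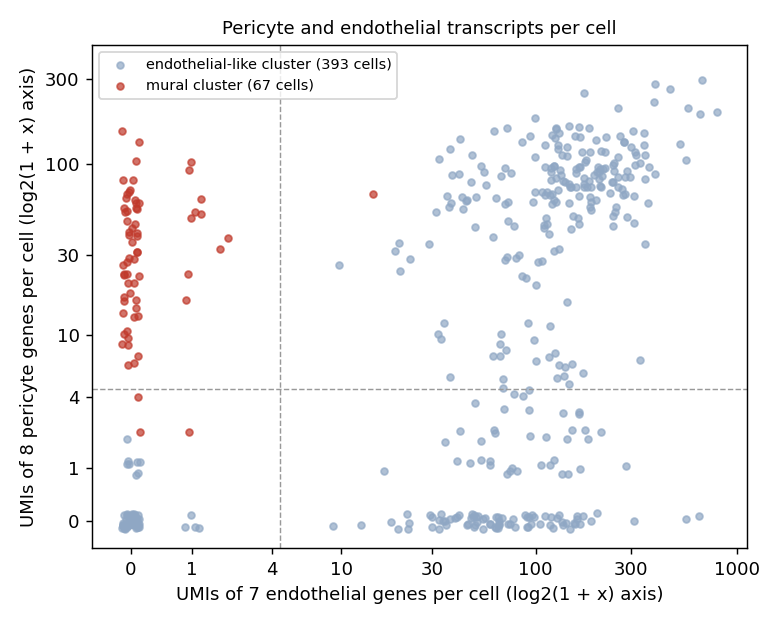
UMIs per cell summed over 7 endothelial genes (x axis) and 8 pericyte genes (y axis), both on log2(1 + UMIs) axes with points jittered, for the 393 droplets of the endothelial-like cluster and the 67 cells of the mural cluster; dashed lines mark 5 UMIs. The upper right holds 215 endothelial-like droplets, and 63 mural cells sit at the upper left.

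The cells of the mural cluster differed widely in contractile transcripts. Acta2, Tagln (transgelin, an actin-binding protein) and Myh11 together gave 0 UMIs in 31 cells and at least 10 UMIs in 28, with a maximum of 231. Only 4 cells had 1 or 2 UMIs and 4 had 3 to 9. Cells with at least 3 UMIs over these genes are called contractile below, and the rest non-contractile. The limit cuts a range and does not define a type. Kcnj8 and Abcc9 ran the other way, as 33 cells with fewer than 10 contractile UMIs but only 2 of the 28 with at least 10 held at least 3 UMIs over the channel pair. The remaining 6 cells had little of either.

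**Figure D3:**
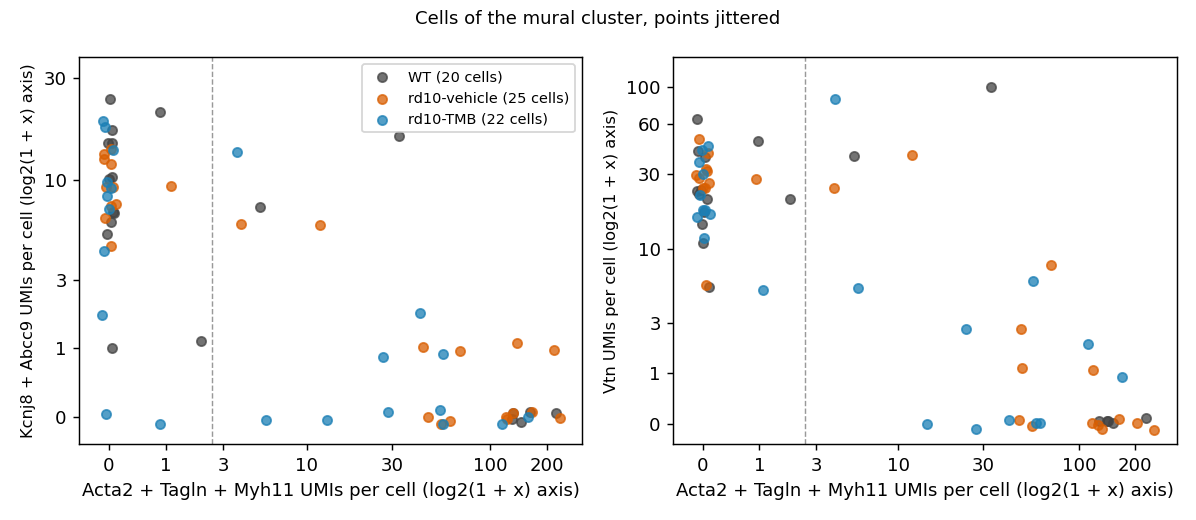
UMIs per cell of Acta2, Tagln and Myh11 summed (x axis) against Kcnj8 and Abcc9 summed (left, y axis) and against Vtn (right, y axis), on log2(1 + UMIs) axes, 1 jittered point per mural cell coloured by library; the dashed line marks the limit of 3 UMIs. The left panel has cells along both axes, with 2 of the 28 cells of at least 10 contractile UMIs reaching 3 channel UMIs, and each library contributes to both arms.

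Contractile cells were 7 of 20 in WT (35.0%, 15.4 to 59.2), 14 of 25 in rd10-vehicle (56.0%, 34.9 to 75.6) and 11 of 22 in rd10-TMB (50%, 28.2 to 71.8). The 3 intervals overlap, and a difference between the shares was not tested. After thinning each cell to 1000 UMIs the shares were 31.6%, 52.0% and 40.9%. With only cells of at least 1000 genes they were 53.8% (7 of 13), 54.5% (12 of 22) and 45% (9 of 20), so the lower WT share was not seen among cells with more genes. Contractile cells had a median of 4845 UMIs and 1828.5 genes, and non-contractile cells 2437 UMIs and 1321 genes. The whole subsets held 145909 and 87008 UMIs.

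The promoters of 4 genes, contractile and channel genes, were read from RefSeq (GRCm38.p6), each as 250 bases before and 50 after 1 annotated start, in the sense of the gene. Smooth muscle genes are known targets of serum response factor and its partner myocardin, which bind the CArG box. Acta2 (chr19:34255324-34255623, minus strand) and Myl9 (chr2:156775214-156775513, plus strand) are contractile genes. Kcnj8 (chr6:142571565-142571864, minus strand) and Abcc9 (chr6:142702225-142702524, minus strand) are neighbours on chromosome 6. Capitals mark a CArG box with at most 1 base off; the box reads alike on both strands.
Acta2: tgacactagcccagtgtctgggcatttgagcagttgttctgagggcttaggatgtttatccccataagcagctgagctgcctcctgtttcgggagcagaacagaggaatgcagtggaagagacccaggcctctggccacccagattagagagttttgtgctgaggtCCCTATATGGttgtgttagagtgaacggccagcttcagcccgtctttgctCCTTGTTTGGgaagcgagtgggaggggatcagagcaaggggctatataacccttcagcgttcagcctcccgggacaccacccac
Myl9: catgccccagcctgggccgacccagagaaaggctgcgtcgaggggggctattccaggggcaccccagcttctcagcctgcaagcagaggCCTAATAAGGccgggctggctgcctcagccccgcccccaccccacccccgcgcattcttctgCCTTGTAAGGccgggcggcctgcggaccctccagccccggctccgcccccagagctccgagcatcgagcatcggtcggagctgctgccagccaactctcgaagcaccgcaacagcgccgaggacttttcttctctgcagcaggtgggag
Kcnj8: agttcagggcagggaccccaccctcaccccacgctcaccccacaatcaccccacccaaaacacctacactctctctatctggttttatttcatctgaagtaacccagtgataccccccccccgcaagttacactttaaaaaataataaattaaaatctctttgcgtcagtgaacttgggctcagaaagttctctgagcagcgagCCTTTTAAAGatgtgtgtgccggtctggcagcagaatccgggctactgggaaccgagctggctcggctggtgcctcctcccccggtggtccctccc
Abcc9: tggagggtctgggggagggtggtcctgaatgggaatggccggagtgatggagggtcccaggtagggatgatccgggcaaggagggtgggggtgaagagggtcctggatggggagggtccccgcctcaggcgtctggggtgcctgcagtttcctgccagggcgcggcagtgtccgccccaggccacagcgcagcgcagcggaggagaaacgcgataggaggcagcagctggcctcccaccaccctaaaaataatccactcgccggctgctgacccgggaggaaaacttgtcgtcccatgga
The Acta2 window held 2 near boxes, which begin 84 and 34 bases before the start, and 0 exact ones. In Myl9 the box 161 bases before the start was exact, and the one 99 bases before it was 1 base off. Kcnj8 had 1 near box, 46 bases before the start, and Abcc9 had none. An exact box was in 1.81% of the 27025 genes with a promoter in the table and a box with at most 1 base off in 23.8%. Among 25 genes of the smooth muscle list with a promoter, 2 (8%) had an exact box, Myl6 and Myl9, and 10 (40%) had a near one. Among 30 genes of the pericyte identity list the counts were 0 and 9 (30%). A match describes these letters and is not evidence of binding.

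The contractile cells carried the rest of the contractile machinery. Of 634 genes with at least 50 UMIs over both subsets, 109 (17.2%) were at least 2-fold higher in contractile cells and 61 (9.62%) at least 2-fold higher in non-contractile cells. Of 17 counted smooth muscle genes other than the 3 of the limit, 13 were at least 2-fold higher in contractile cells, and the same 13 were higher within each of the 3 libraries. The list median was 2.65 on the log2 scale, and the share of all genes higher within every library is not given. The same cells were grouped by transcripts of that program, so its genes describe the groups.

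Thin-filament and myosin genes were among them. Tpm2, which encodes beta-tropomyosin, had 4715 CPM in contractile and 253 CPM in non-contractile cells, a log2 ratio of 4.16 (3.61 to 4.90). Tpm1 had a log2 ratio of 3.04, Lmod1, a leiomodin that elongates actin filaments, 3.13, and Mylk, the kinase that switches on smooth muscle myosin, 2.54. Palld, an actin-bundling scaffold, had 60 UMIs in contractile and 0 in non-contractile cells, and Csrp1, a LIM-domain protein of smooth muscle, 105 and 0. Pln had 36 UMIs in 13 contractile cells and 0 elsewhere in the cluster.

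Other genes of the same list separated the cells less or the other way. Cald1, the thin-filament inhibitor caldesmon, stood at 2385 CPM in contractile and 2425 CPM in non-contractile cells (log2 ratio -0.03, -0.27 to 0.23), and Des, the intermediate filament desmin, at 274 and 299 CPM. The sign of both ratios differed between libraries. Myl9, the regulatory light chain, was in 31 of 35 non-contractile cells at 2023 CPM and was at 4153 CPM in contractile cells (log2 ratio 1.03). Casq2, a calcium store protein, was higher in non-contractile cells, with 43 UMIs against 19 (log2 ratio -1.88, -2.79 to -1.11).

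The non-contractile cells held the channel and pericyte genes. Of 24 counted pericyte identity genes, 11 were at least 2-fold higher there, beside 9.62% of all genes. In contractile cells 0 were at least 2-fold higher, beside 17.2%. The median log2 ratio of contractile over non-contractile was -0.77. Within each library 15 of the 24 were lower in contractile cells, and the share of all genes that were so is not given. Abcc9 had 183 UMIs in non-contractile and 22 in contractile cells (log2 ratio -3.75, -4.51 to -3.16). Kcnj8 had 155 and 33 (-2.94), and Vtn 921 and 323 (-2.25). Pdgfrb was at 1598 and 473 CPM (-1.75).

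Other pericyte markers separated the pooled cells less. Rgs5 was at 13194 CPM in non-contractile and 8368 CPM in contractile cells (log2 ratio -0.66). The libraries differed here, with ratios for Rgs5 of -0.94 in WT and -1.07 in rd10-vehicle but -0.08 in rd10-TMB. Higd1b had a pooled log2 ratio of -0.87, with values of -1.30, -1.40 and 0.31 in the same order, so in the last library its direction was the other one. Notch3, the Notch receptor of mural cells, had a pooled ratio of -0.36 (-0.80 to 0.11), and its sign was not the same in the libraries either (0.30, -0.57 and -0.48). Mcam, Bcam and Pde5a lay on the contractile side without reaching 2-fold, at 0.93, 0.51 and 0.44. When only the 28 cells with at least 10 contractile UMIs were set against the 31 cells with none, Abcc9 was at -4.39, Kcnj8 at -3.89, Vtn at -3.09 and Rgs5 at -0.64, so the channel genes and Vtn parted further and Rgs5 did not.

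**Figure D4:**
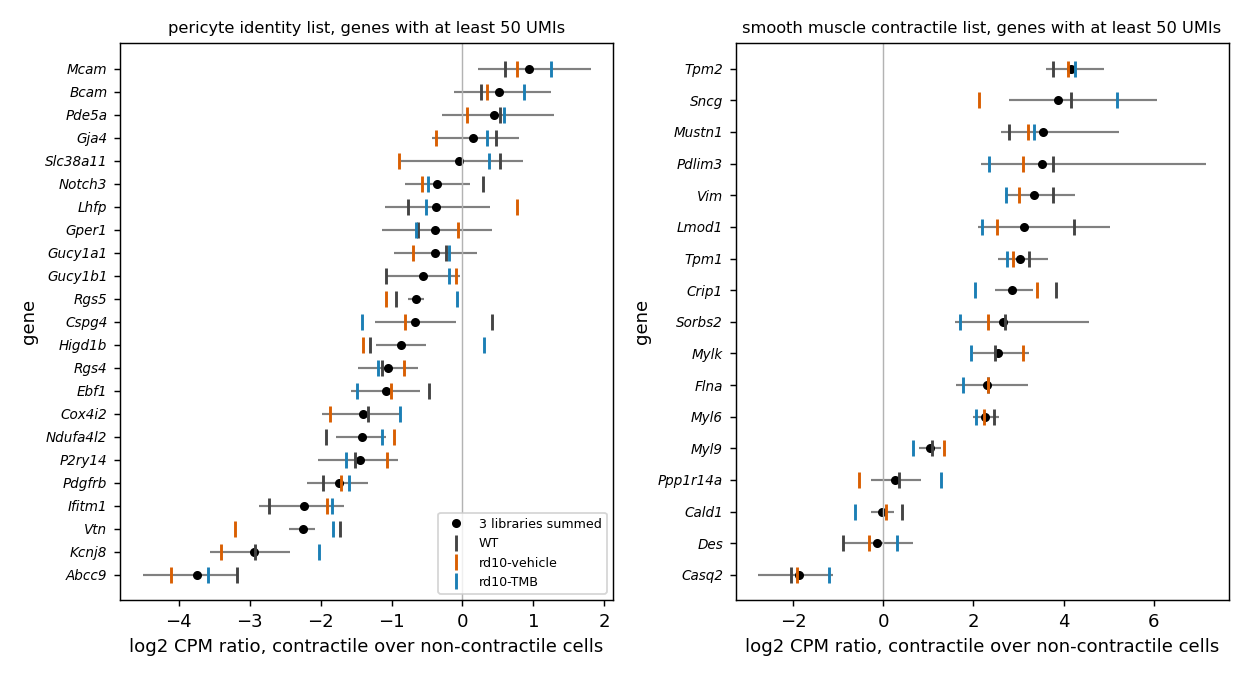
Log2 ratio of CPM in contractile over non-contractile mural cells (x axis) for counted genes of the pericyte identity and smooth muscle lists (y axis, 1 pericyte identity gene not shown); bars are 95% counting intervals and ticks are the 3 libraries. Abcc9 (-3.75) and Tpm2 (4.16) mark the ends, while Cald1 (-0.03) sits at the centre.

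Receptors, channels and their second messengers were next. Of 54 vasoactive receptors and channels in the matrix, 13 had at least 20 UMIs in the cluster and 16 had none. All 13 were at least 2-fold above the endothelial-like cluster, against 20.2% of all genes. Ednra, the endothelin-1 receptor that constricts vessels, had 62 UMIs in 34 cells and was 64.8-fold above all other cells. Gucy1a1 and Gucy1b1, the subunits of the nitric oxide receptor guanylate cyclase, had 105 and 135 UMIs, and Pde5a, which breaks down its cyclic GMP, had 70. P2ry14, a receptor for UDP-sugars, had 119 UMIs and was on the non-contractile side (log2 ratio -1.45). Pde3a, a phosphodiesterase of cyclic AMP and cyclic GMP, had 55 UMIs in contractile and 6 in non-contractile cells (2.25, 1.24 to 3.96).

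The receptors that the drugs address were close to the limit of detection. Adra1a, Adra1b and Adra1d, the targets of tamsulosin, had 0 UMIs, and 0 of 67 cells, with a count of 0 taken to allow 3, allows a share of up to 4.48% of cells with a UMI, or 12.9 CPM. Drd2, a target of bromocriptine, also had 0 UMIs. Drd4, another D2-like receptor gene, had 2 UMIs in 2 cells, 1 in WT and 1 in rd10-vehicle, and Drd3 was not in the matrix. Adrb1, the target of metoprolol, had 4 UMIs in 2 cells, both in rd10-vehicle. The alpha2-adrenergic receptor gene Adra2a had 6 UMIs in 5 cells. At this depth neither presence nor change of these receptors could be read.

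Matrix and vessel-wall genes were found in both contractile and non-contractile cells. Of 21 basement membrane genes with at least 20 UMIs, 18 were at least 2-fold and 17 at least 10-fold above all other cells, again beside 30.4% and 9.48% of all genes. Col4a1 and Col4a2, the type IV collagen chains, had 185 and 117 UMIs, and Itga1, a collagen-binding integrin, 187. Of 15 counted between the subsets, 0 were at least 2-fold higher in contractile cells and 3 in non-contractile cells, namely Vtn, Nid1 (nidogen, -1.54) and Lamc1 (laminin gamma-1, -1.42). All genes gave 17.2% and 9.62%. The list median was -0.64, and 8 of the 15 genes were lower and 2 higher in contractile cells within every library. The shares of all genes for these last counts are not given. Mgp, an inhibitor of calcification, was in 65 of 67 cells at 6294 CPM, with 4564 CPM in contractile and 9195 CPM in non-contractile cells (-1.01). Igfbp7 was found in all 67 cells at 5032 CPM, and its subsets lay at 5161 and 4816 CPM.

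Among signalling genes, Ptn (pleiotrophin) had 53 UMIs in non-contractile and 0 in contractile cells. Ntn4 (netrin-4) had the opposite distribution, with 64 UMIs in contractile and 0 in non-contractile cells. Id3, an inhibitor of helix-loop-helix factors, was at 2056 and 161 CPM (log2 ratio 3.58, 2.91 to 4.56), and Pdgfa, a growth factor ligand, at 555 and 149 CPM (1.80). Il34, a ligand of the Csf1 receptor of microglia, had 13 UMIs in contractile and 38 in non-contractile cells (-2.22) and was 38.7-fold above all other cells.

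Transcription factors and transporters gave smaller counts. Of 18 transcription factors with at least 20 UMIs, 14 were at least 2-fold above all other cells, beside 30.4% of all genes. Foxs1, a forkhead factor of pericytes, was 104-fold above other cells at 40 UMIs, and Heyl, a Notch target, 59.3-fold at 33 UMIs. Ebf1 had 149 UMIs and a log2 ratio of -1.07 between contractile and non-contractile cells, and Klf2, a flow-responsive factor, 1.41. Among transporters, Slc38a11, a putative amino acid transporter, was 148-fold above other cells and did not separate the subsets (-0.05). Of the RGS family, Rgs4 followed Rgs5 with 192 UMIs and a ratio of -1.04, and Rgs16 had 25 UMIs.

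Shares of mural cells had overlapping intervals in the 3 libraries. The WT share was 0.447% of recovered cells (0.273 to 0.689). The share in rd10-vehicle was 0.420% (0.272 to 0.619), and that in rd10-TMB 0.457% (0.287 to 0.691). The Müller glia-like cluster took 11.8%, 41.9% and 36.3% of the same libraries. With those cells out of the denominator the shares were 0.507% (0.310 to 0.781), 0.723% (0.468 to 1.06) and 0.718% (0.451 to 1.09), which puts rd10-vehicle above WT, again with overlapping intervals. With 20 to 25 mural cells per library these intervals are wide, and a difference between the shares was not tested.

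A gene was counted as different when its CPM ratio reached 2-fold and the 2 libraries compared held 50 UMIs of it or more, a rule of size and not a test. All 3 comparisons share libraries, so they are not independent of each other. For rd10-vehicle over WT, 14 of 413 genes (3.39%) were at least 2-fold higher and 6 (1.45%) at least 2-fold lower. For rd10-TMB over WT, 19 of 367 (5.18%) were higher and 10 (2.72%) lower. For rd10-TMB over rd10-vehicle, 7 of 433 (1.62%) were higher and 12 (2.77%) lower. As the mix of contractile and non-contractile cells was not equal in the libraries, the ratios were read within each subset.

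The non-contractile cells of both rd10 libraries held more immediate-early transcripts than those of WT. Egr1, an early growth response factor, had 26 UMIs in 13 WT cells, 150 in 11 rd10-vehicle cells and 139 in 11 rd10-TMB cells, or 939, 5126 and 4626 CPM. It was found in 7 of the 13 WT cells and in all 11 cells of each rd10 library, with medians of 1, 14 and 12 UMIs per cell. The log2 ratio was 2.40 (1.84 to 3.11) for rd10-vehicle over WT and 2.26 (1.69 to 2.97) for rd10-TMB over WT, and the rd10 libraries did not differ from each other beyond counting error (-0.15, -0.49 to 0.19).

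The AP-1 genes followed. Fos stood at 4404 CPM (WT), 13363 (rd10-vehicle) and 13146 (rd10-TMB), with ratios of 1.59 and 1.57 over WT. Junb had 1625, 7792 and 7022 CPM, with ratios of 2.24 and 2.09, and Jun ratios of 1.35 and 1.24. Of 12 counted immediate-early genes, 8 exceeded WT by 2-fold or more in the rd10-vehicle cells (median 1.40), beside 11.5% of the 104 genes counted in these cells. In rd10-TMB over WT it was 10 of 13 (median 1.57), beside 12.4% of 105. In rd10-TMB over rd10-vehicle it was 1 of 13 (median -0.07), beside 0.901% of 111, and that gene was Nr4a1, a nuclear receptor, with 53 against 24 UMIs. The median over all genes was -0.05 for rd10-TMB over WT and -0.08 for rd10-TMB over rd10-vehicle. These immediate-early genes make up most of the genes past 2-fold, so the background percentages are not independent of them.

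The same genes were higher in the rest of the rd10 retina. In all other cells of the libraries the log2 ratio of rd10-vehicle over WT was 1.40 for Egr1, 1.54 for Fos and 1.97 for Junb, and in the endothelial-like cluster it was 0.91, 0.84 and 0.92. For rd10-TMB over WT the ratios were 1.29, 1.39 and 1.82 in all other cells and 0.94, 0.86 and 0.88 in the endothelial-like cluster. The makeup of all other cells differed between libraries, as Müller glia-like cells were 11.8% of the WT library, 41.9% of the rd10-vehicle library and 36.3% of the rd10-TMB library, and its part in these ratios was not tested. Nothing here was shown to be particular to mural cells. Depth moved with the result as well, since WT non-contractile cells had a median of 1891 UMIs against 2437 (rd10-vehicle) and 2615 (rd10-TMB). With every cell thinned to 1000 UMIs the ratios over WT were 2.15 and 2.23 for Egr1, 1.57 and 1.47 for Fos and 2.52 and 2.18 for Junb. With only WT cells that held Xist and no Y-linked UMI, which leaves 6 cells, they were 2.64 and 2.49, 2.34 and 2.32, and 3.24 and 3.09. The rod markers in these cells summed to 1408, 410.1 and 1132 CPM, and the part of handling and dissociation in these ratios was not tested.

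In contractile cells fewer immediate-early genes passed 2-fold over WT, and more did between the rd10 libraries; the difference between subsets was not tested. Egr1 levels were 2207 CPM (WT), 2658 (rd10-vehicle) and 3135 (rd10-TMB), and all 7 WT cells held it. Of 15 counted genes, 1 was at least 2-fold higher and 1 lower in rd10-vehicle over WT, beside 4.15% and 2.26% of 265 genes (list median 0.25). For rd10-TMB over WT it was 3 of 14, with 0 lower, beside 3.67% and 3.21% of 218 (median 0.80), with Junb at 1.16 and Fos at 0.77. For rd10-TMB over rd10-vehicle it was 4 higher and 1 lower of 15, beside 2.61% and 2.24% of 268 (median 0.42), with Jun at 1.29 (229 against 140 UMIs). The WT contractile cells had Egr1 above the WT non-contractile cells (2207 against 939 CPM), whereas in both rd10 libraries the order was the reverse.

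Rgs5 chose the cluster, so its levels by library are a description. In contractile cells it was at 6492 CPM in 7 WT cells, 6061 in 14 rd10-vehicle cells and 13494 in 11 rd10-TMB cells, with medians of 31, 24 and 39 UMIs per cell. The log2 ratio of rd10-TMB was 1.05 (0.84 to 1.28) over WT and 1.15 (0.97 to 1.34) over rd10-vehicle. Without the cell with the most Rgs5 UMIs in each library they were 1.36 and 1.16. In non-contractile cells Rgs5 stood at 12491, 12747 and 14278 CPM, and the ratio of rd10-TMB over rd10-vehicle was 0.16 (-0.04 to 0.37). In all other cells of the libraries it was -0.37, and in the droplets with both endothelial and pericyte genes -0.09. Lens crystallin transcripts moved with the same cells, as 28 of the 32 lens marker UMIs of the cluster lay in 3 contractile rd10-TMB cells, and their part in the Rgs5 difference was not tested. In the same cells Vtn had 103 UMIs in rd10-TMB and 74 in rd10-vehicle (log2 ratio 1.05), but without the cell with the most Vtn UMIs in each library the ratio was -0.33, and with cells thinned to 1000 UMIs it was -0.14.

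The levels of the contractile genes themselves were compared in contractile cells. Acta2 levels were 11166 CPM (WT), 12216 (rd10-vehicle) and 6503 (rd10-TMB), a log2 ratio of -0.78 over WT and -0.91 (-1.11 to -0.71) over rd10-vehicle. Myh11 was at 2882, 2720 and 1951 CPM and Myl9 at 5012, 4134 and 3414 CPM. Of 16 counted smooth muscle genes, 0 were at least 2-fold different between rd10-TMB and rd10-vehicle, beside 2.61% higher and 2.24% lower of all genes, and the list median was -0.34. For rd10-TMB over WT 1 of 16 was at least 2-fold lower, Cald1 at -1.02, beside 3.21%, and for rd10-vehicle over WT 0 of 16, beside 4.15% higher and 2.26% lower. With 16 genes these counts cannot be told apart from the shares over all genes. Because Acta2 and Myh11 set the limit for these cells, their levels are a description.

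**Figure D5:**
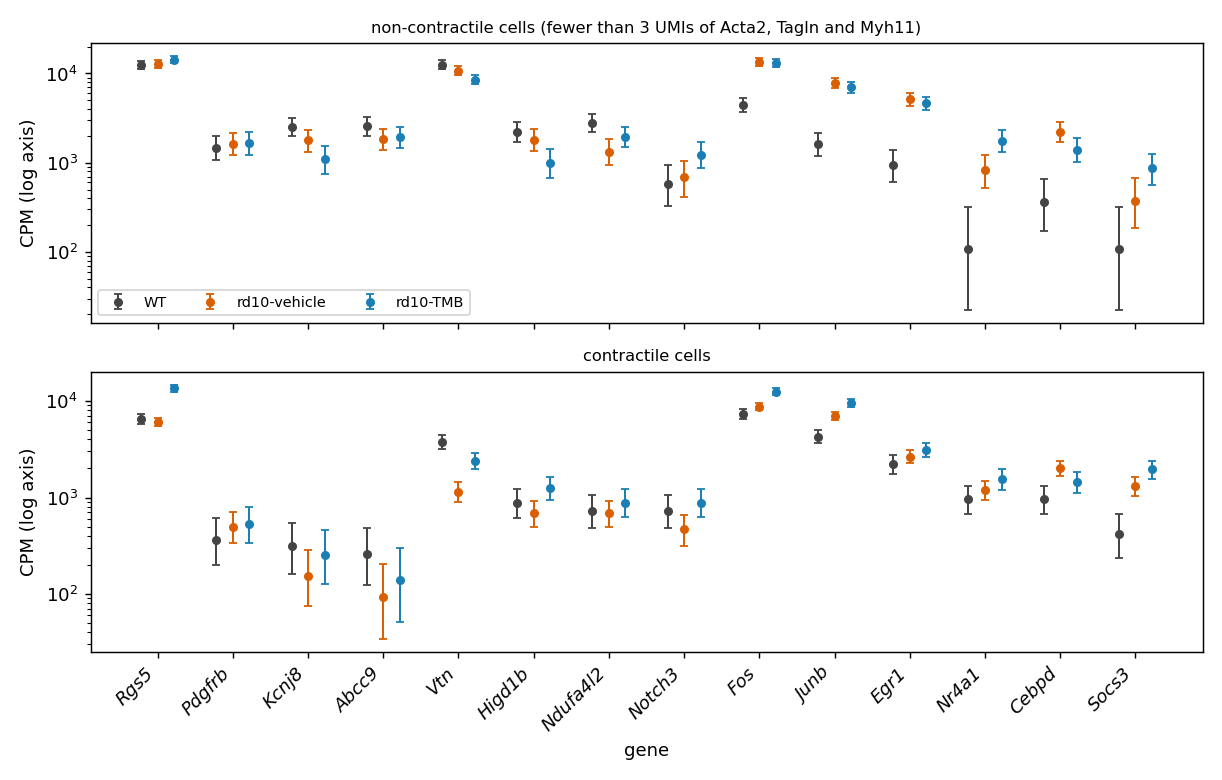
CPM of 14 genes (y axis, log scale) by gene (x axis) in the WT, rd10-vehicle and rd10-TMB libraries, for non-contractile (top) and contractile (bottom) mural cells; points are sums over the cells of 1 library and bars are 95% Poisson intervals. In non-contractile cells Egr1, Fos and Junb are lowest in WT (939, 4404 and 1625 CPM), and in contractile cells Rgs5 is highest in rd10-TMB (13494 CPM).

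Kcnj8 and Higd1b in non-contractile cells were highest in WT. The WT cells held 70 UMIs of Kcnj8, the rd10-vehicle cells 52 and the rd10-TMB cells 33, or 2527, 1777 and 1098 CPM, and it was found in 11 of 13, 11 of 11 and 8 of 11 cells. The log2 ratio of rd10-TMB over WT was -1.18 (-1.85 to -0.59). Higd1b had 61, 53 and 30 UMIs and a ratio of -1.12 (-1.82 to -0.49). Their ratios were -1.03 and -0.45 with WT cells that held Xist and no Y-linked UMI, so for Higd1b the 2-fold difference depended on which WT cells were used. In contractile cells the Higd1b level was highest in rd10-TMB instead.

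The other identity genes moved less or the other way. Abcc9, which pairs with Kcnj8 in the channel, stood at 2563, 1845 and 1930.3 CPM, a ratio of -0.41 (-0.94 to 0.11) for rd10-TMB over WT. Vtn was at 12599, 10765 and 8553 CPM (-0.56). Pdgfrb was at 1480.1, 1640.4 and 1664 CPM, and Notch3 at 578 CPM in WT and 1231 CPM in rd10-TMB (1.04, 0.21 to 2.04, from 16 and 37 UMIs). Of 15 counted pericyte identity genes, 2 were at least 2-fold lower and 1 higher in rd10-TMB over WT, beside 1.9% and 12.4% of all genes counted; Kcnj8 and Higd1b were the only genes of the 105 that were lower by 2-fold. In the endothelial-like droplets that held both gene sets, Kcnj8 levels were 570 CPM (WT), 439 (rd10-vehicle) and 570 (rd10-TMB), and the interval of the log2 ratio of rd10-TMB over WT was -0.18 to 0.18. Higd1b levels there were 515, 440 and 579 CPM, with a ratio of 0.17 (-0.02 to 0.36) for rd10-TMB over WT. Both genes are among those that chose the droplets, so these levels are a description.

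Some genes of the acute-phase and cytokine response were higher in the rd10 libraries. Socs3, a feedback inhibitor of cytokine signalling through Stat3, gave 16 UMIs in the contractile cells of WT and 84 in those of each rd10 library (415.5, 1306 and 1951 CPM), with log2 ratios of 1.58 (0.87 to 2.52) and 2.16 (1.45 to 3.10) over WT. Its ratio in all other cells of the libraries was 3.39 and 3.22. Cebpb, a factor of the acute-phase response, had 38, 156 and 78 UMIs there, of 38510, 64342 and 43057 UMIs in all. Its ratio of rd10-TMB over WT in those cells was below 2-fold. Cebpd in non-contractile cells had 10, 65 and 42 UMIs, of 27700, 29261 and 30047. Over the whole cluster, 3 of 8 counted immune response genes reached a 2-fold excess in rd10-vehicle over WT, namely Socs3, Cebpb and Cebpd, beside 3.39% of all genes. It was 2 of 7 in rd10-TMB over WT, Socs3 among them, beside 5.18%. Between the rd10 libraries 0 of 7 passed 2-fold, beside 1.62% higher and 2.77% lower.

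The highest and lowest ratios over the whole cluster named few further genes. In rd10-vehicle over WT the highest were Ccn2 (1.82), Socs3 (1.76), Adamts1 (1.64), Cebpb (1.58) and Apold1 (1.55), and the lowest Hspa1a (-1.23), Cox7a2 (-1.07), S1pr3 (-1.06), Kif5b (-1.04) and Dbp (-1.02). In rd10-TMB over WT they were Rrad (2.35), Socs3 (2.33), Apold1 (1.88), Dnaja1 (1.59) and Ier2 (1.53), and Gadd45b (-1.61), Kif5b (-1.56), Ckb (-1.50), Csrp2 (-1.45) and Dstn (-1.37). In all other cells of the libraries the ratios of rd10-vehicle over WT were 1.83 for Ccn2, 3.39 for Socs3, 1.90 for Adamts1 and 3.21 for Cebpb, as high as or higher than in the mural cells, but 0.52 for Apold1. Those of S1pr3 (2.43), Hspa1a (0.47) and Kif5b (0.17) had the opposite sign there. For Hspa1a this depended on the WT cells used, since its ratio in the mural cluster turned from -1.23 to 1.91 with WT cells that held Xist and no Y-linked UMI. For rd10-TMB over WT the sign was opposite for Dnaja1 (-0.30), Gadd45b (1.58), Csrp2 (1.16), Kif5b (0.11) and Ckb (0.06), and the ratio of Gadd45b in the mural cluster itself turned from -1.61 to 0.88 without contractile cells. For rd10-vehicle over WT in the endothelial-like cluster, Ccn2 was at -0.10 and Socs3 at 1.85. Adamts1, Cebpb and Apold1 were at 1.53, 2.26 and 1.17 there. S1pr3 (0.18), Hspa1a (0.54) and Kif5b (0.31) had the opposite sign to the mural cluster there, and Cox7a2 (-0.48) and Dbp (-1.40) the same. The makeup of all other cells differed between libraries, and its part in these ratios was not tested. Most of the ratios in the mural cluster rest on few molecules, as Ccn2 had 49 against 9 UMIs and Rrad, a small GTPase that restrains calcium channels, 44 against 7.

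In rd10-TMB over rd10-vehicle the highest were Cdkn1c (1.98), Klf6 (1.74), Limd1 (1.45), Myh9 (1.43) and Crip2 (1.32), and the lowest Gadd45b (-1.62), Ckb (-1.53), Ntn4 (-1.37), Crim1 (-1.33) and Id1 (-1.26). In all other cells of these libraries the 10 ratios lay between -0.36 and 0.17. Gadd45b, a stress-induced gene, had 9 UMIs in the contractile cells of rd10-TMB against 53 in rd10-vehicle and 43 in WT, and 7, 13 and 3 in the non-contractile cells. The cyclin-dependent kinase inhibitor Cdkn1c had 37 UMIs in contractile rd10-TMB cells and 10 in those of rd10-vehicle, and 5 and 3 in non-contractile cells.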

How the data were processed

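Single-cell RNA libraries of dissociated retina, 1 per group, were analysed. The authors aligned reads to mm10 with Cell Ranger 6.0.1, joined the libraries with Cumulus, removed doublets with Scrublet, kept cells with at least 500 genes in Seurat 3.2.2 and clustered them. Each pool was made of 1 retina per animal from 4 animals according to the labels, while the study's text gives fewer for the rd10 groups. Values deposited in the matrix are on a natural log scale, ln(1 + UMIs per 10000), and the deposited cell table holds UMI counts per cell and a cluster number. Counts were recovered from both. Of 32620606 entries, 100% came out whole within 0.001 UMI, and sums matched the deposited totals in 15242 of 15242 cells.

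UMIs were summed per library over the cells of a cluster or subset and scaled to CPM. Log2 ratios used a pseudocount of 1 UMI per library. Shares carry Clopper-Pearson, levels Poisson and ratios exact conditional intervals, all at 95%. A count of 0 allows 3. Thinning drew 1000 UMIs per cell. Ratio scripts were tested on simulated data. No doublet caller was run here. Other clusters were named from marker lists, and the names may differ from those of the study. Python 3.11.15, numpy 2.4.6, scipy 1.17.1 and pandas 2.3.3 were used.

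The cells, gene lists and markers were chosen with earlier results of these data known. Genes named were members of the lists with at least 20 UMIs in the cluster, the 10 highest folds over all other cells, the 5 highest over the endothelial-like cluster, the 5 highest and 5 lowest ratios per pair of libraries, their paralogues, the drug targets and markers of other cell types. Folds were ranked among genes with at least 50 UMIs in the cluster. Csrp1 was chosen after its values were seen. So were the split of the library ratios by subset and the sets of 8 pericyte and 7 endothelial genes. Alternatives covered scaling, totals, cell weights, pseudocount, count and fold limits, cell filters, thinning, sex of WT cells and subsets. Promoters came from RefSeq. Some genes of the lists are not reported here by name.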

Additional observations from a re-analysis of the deposited data

How the results depend on the processing

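No paired analysis was possible because each group was 1 library, and for the same reason no replicate could be left out. The share of contractile cells stayed within its counting interval under all 16 alternatives, although that of WT moved from 35.0% to 53.8% with cells of at least 1000 genes, and the share of mural cells under 14 of 16; with a denominator that omits Müller glia-like cells the rd10-vehicle share was 0.723% and that of rd10-TMB 0.718%. Counts of genes past 2-fold moved by over 1.5 times as follows. For rd10-vehicle over WT they were 28 higher with the mean over cells, 9 higher and 1 lower with cells thinned to 1000 UMIs, 14 lower with WT cells that held Xist and no Y-linked UMI, 2 lower without contractile cells, 61 and 60 at a minimum of 20 UMIs, 4 and 0 at 200 UMIs, and 48 and 36 at a 1.5-fold limit. For rd10-TMB over WT they were 29 higher with the mean over cells, 8 and 1 thinned, 4 lower without the 5% of cells with the most UMIs, 2 lower without contractile cells, 8 higher without non-contractile cells, 57 and 57 at 20 UMIs, 5 and 0 at 200, and 43 and 36 at 1.5-fold. For rd10-TMB over rd10-vehicle they were 0 and 5 thinned, 1 and 0 without contractile cells, 6 lower without non-contractile cells, 47 and 60 at 20 UMIs, 1 and 2 at 200, and 39 and 44 at 1.5-fold. Fewer cells or UMIs leave fewer genes above the minimum; no other cause was tested. Of 42 named ratios past 2-fold in the whole cluster, 41 or 42 kept their direction under each of 13 alternatives and 27 to 42 stayed past 2-fold, the fewest without either subset. Hspa1a for rd10-vehicle over WT turned from -1.23 to 1.91 with WT cells that held Xist and no Y-linked UMI, Gadd45b for rd10-TMB over WT from -1.61 to 0.88 without contractile cells, and Vtn in contractile cells for rd10-TMB over rd10-vehicle from 1.05 to -0.14 thinned and -0.33 without the cell richest in Vtn in each library; the causes were not tested. Leaving out non-contractile cells, leaving out the cell richest in a gene and all alternatives within a subset were chosen after seeing the data. With 7 to 14 cells per subset and library, a few cells can set a ratio.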
